A study of Sus scrofa with 6 samples.

Results

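The 9 genes described here encode enzymes that make nucleotides, the building blocks of DNA and RNA. They are the deoxynucleotide (dNTP) enzymes RRM1, RRM2, TYMS and TK1, the purine enzymes PPAT, GART, PAICS and IMPDH2, and the pyrimidine enzyme CAD. They were picked by name among the 18007 genes of the RNA-seq table. The gene name column lists 7 of them, while RRM1 and CAD appear there by identifier only (ENSSSCG00000014791 and ENSSSCG00000028978) and were named from an identifier table. The samples are 3 lines of porcine embryonic fibroblasts (PEF5, PEF7 and PEF8) and the 3 lines of porcine induced pluripotent stem cells (piPSC5, piPSC7 and piPSC8) made from them, with 1 library per line. The question was how the mRNA levels of these enzymes differed between piPSCs and the genetically matched PEFs.

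The PEFs came from the ear tip of embryos at embryonic day 90 of a Longwhite (Large White in the study's methods) boar and a Meishan sow. The piPSCs were made with lentiviruses that carry doxycycline-dependent Oct4, Sox2, Klf4 and c-Myc (OSKM, from TetO-FUW-OSKM) and the activator FUW-M2rtTA. Colonies were picked and expanded on mouse feeder cells, and what feeder RNA adds to the values was not tested. The study describes the piPSC lines as dependent on doxycycline. It reports that pluripotency genes fell and PEF genes rose once doxycycline was removed. The PEF libraries were deeper (15146576 to 17836510 fragments) than the piPSC libraries (11010629 to 15050204). All 12 fibroblast markers fell in piPSCs, and markers of epithelial, keratinocyte, cartilage, muscle, endothelial and immune cells each summed to at most 22.7 FPKM in a library (immune markers in PEF7). Of 10 pluripotency markers, 6 are in the table. SOX2 was at 0.129 to 3.01 FPKM in piPSCs against 0 to 0.0208 in PEFs, and LIN28B at 0.281 to 8.90 against 0.0104 to 0.0367. Both were low in piPSCs and missed the threshold, though every piPSC library was above every PEF library. The study reports both genes as upregulated. NANOG was at 0 in all libraries but piPSC7 (0.0919 FPKM), and POU5F1 was not analysed here. The study describes the PEF lines as male. DDX3Y, a Y-linked gene, had 0 fragments in PEF5, PEF7, piPSC5 and piPSC7, against 3439 in PEF8 and 4207 in piPSC8, so values are given line by line.

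Cells obtain purines and pyrimidines by building them from small precursors (de novo synthesis) or by recycling bases and nucleosides (salvage). Ribonucleotide reductase then converts ribonucleotides into the deoxynucleotides used in DNA, and thymidylate is made by a separate enzyme. Many dNTP enzymes are known to be made mainly when cells replicate DNA, whereas the de novo enzymes serve both RNA and DNA synthesis.

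The mRNA level of 7 of the 9 enzymes rose in piPSCs, none of the 8 tested fell, and RRM2 missed the threshold. The IMPDH2 row was too low to be tested and, as described below, cannot be read as the level of the gene. Values are FPKM, fragments per kilobase of gene model, scaled to the library total, and the test was limma on log2(FPKM + 1) with 3 against 3 libraries and a Benjamini-Hochberg adjusted p under 0.05. Among all 12428 genes tested, 30.3% rose and 21.5% fell in the same fit. For the same 7 enzymes every piPSC library was above every PEF library, which held for 37.3% of all genes. These 7 were also at least 2-fold higher in each piPSC line than in its own PEF line, a pattern met by 12.8% of all genes. The median log2 fold change of the 8 tested enzymes was 2.37, beside a median of 0.20 over all tested genes.

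**Figure D1:**
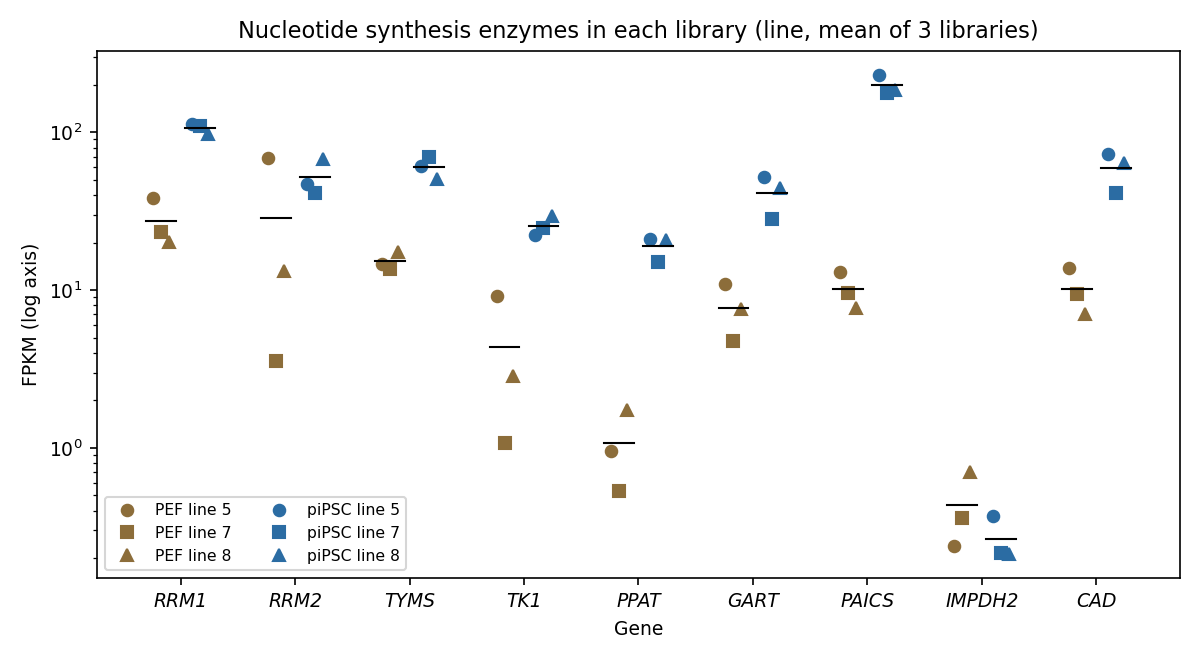
FPKM of the 9 enzymes in each library on a log axis, with brown symbols for PEFs, blue symbols for piPSCs, one symbol shape per line and a black line at the mean of the 3 libraries. Blue and brown symbols do not overlap for 7 enzymes, whereas the RRM2 symbols mix because PEF5 reaches 68.8 FPKM. The IMPDH2 row, which cannot be read as the level of the gene, lies below 1 FPKM throughout.

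Promoter windows of 4 of the enzymes are shown because PAICS had the largest fitted log2 fold change among the 9, RRM2 and TK1 varied most between PEF lines, and TYMS varied least. Each window runs from 250 bases before to 30 bases after the start of the RefSeq gene on Sscrofa11.1 and is written 5′ to 3′ on the strand of the gene. Capitals mark CCAAT (a motif bound by the factor NF-Y), CACGTG (an E-box, the type of site bound by MYC and its partners) or an E2F-type octamer (TTTCCCGC, TTTCGCGC, TTTGCCGC or TTTGGCGC), in either orientation. The windows are PAICS at chr8:55700450-55700729 on the plus strand, RRM2 at chr3:126367116-126367395 on the minus strand, TK1 at chr12:3785747-3786026 on the plus strand and TYMS at chr6:105660250-105660529 on the minus strand.
PAICS: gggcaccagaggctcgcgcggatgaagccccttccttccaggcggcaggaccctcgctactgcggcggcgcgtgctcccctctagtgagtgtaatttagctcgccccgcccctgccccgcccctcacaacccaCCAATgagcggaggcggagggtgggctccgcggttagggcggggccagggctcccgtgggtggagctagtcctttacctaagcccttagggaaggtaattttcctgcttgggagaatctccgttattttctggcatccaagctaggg
RRM2: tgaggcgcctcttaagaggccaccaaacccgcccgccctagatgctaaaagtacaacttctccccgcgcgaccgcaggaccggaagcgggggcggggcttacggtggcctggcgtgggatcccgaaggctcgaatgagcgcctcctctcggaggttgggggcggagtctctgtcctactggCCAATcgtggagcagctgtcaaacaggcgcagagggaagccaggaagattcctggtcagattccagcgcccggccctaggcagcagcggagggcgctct
TK1: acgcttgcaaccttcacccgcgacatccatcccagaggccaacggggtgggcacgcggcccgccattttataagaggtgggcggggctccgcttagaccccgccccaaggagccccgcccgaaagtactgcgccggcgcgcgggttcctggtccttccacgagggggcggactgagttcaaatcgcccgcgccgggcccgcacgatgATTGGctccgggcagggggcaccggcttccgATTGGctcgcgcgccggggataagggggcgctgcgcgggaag
TYMS: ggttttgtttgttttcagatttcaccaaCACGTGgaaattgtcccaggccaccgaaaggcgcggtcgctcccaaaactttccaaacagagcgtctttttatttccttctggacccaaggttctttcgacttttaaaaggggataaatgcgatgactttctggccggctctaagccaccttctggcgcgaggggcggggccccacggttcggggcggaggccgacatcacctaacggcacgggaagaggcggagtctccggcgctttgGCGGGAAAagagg
RRM2 carries CCAAT 69 bases before its start, PAICS 117 bases before, and TK1 the reverse complement at 43 and at 12 bases before. TYMS carries CACGTG 222 bases before its start and the reverse complement of TTTCCCGC, which begins 18 bases into the gene.

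Over the 9 windows, CCAAT was present in 5 (RRM1, RRM2, TK1, PAICS and CAD), while 34.3% of 19558 pig promoter windows of the same length hold it. CACGTG and an E2F-type octamer were each found in 1, TYMS, and in 7.43% and 3.09% of all windows. The motif GGGCGG, a GC box that is not capitalised above, was in 8 of 9 windows and in 49.3% of all windows. GC content was lowest in the GART window and highest in the PPAT window (70.7%), with a median of 58.2% over all windows. The GART window held none of the motifs named here. Whether the RefSeq starts of GART and the other enzymes mark the start of transcription was not tested, so these windows may not be promoters. The PAICS and PPAT windows lie in each other's RefSeq genes, and the IMPDH2 window reaches into RefSeq QRICH1. The counts over the 9 windows carry that limit. These matches describe the letters of these windows and were not tested for binding.

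RRM1 encodes the large, catalytic subunit of ribonucleotide reductase (chromosome 9, 6026595 to 6058025). Its level was 38.3, 23.4 and 20.2 FPKM in PEF5, PEF7 and PEF8, and 112.8, 109.9 and 97.0 FPKM in piPSC5, piPSC7 and piPSC8. The piPSC lines lay close together, and the lowest of them was more than 2-fold above PEF5, the highest PEF line. RRM1 rose 3.91-fold between group means (log2 fold change 1.98, SE 0.25, adjusted p 0.00126).

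RRM2 encodes the small subunit, whose level is known to limit the activity of the enzyme in dividing cells (chromosome 3, 126356655 to 126365644). It was at 68.8 FPKM in PEF5 but at 3.56 in PEF7 and 13.2 in PEF8, and at 47.3, 41.2 and 67.5 FPKM in the piPSC lines of the same order. PEF5 was above every piPSC line, and the PEF lines spanned 19.3-fold against 1.64-fold among piPSCs. The log2 fold change of 1.65 (SE 0.91) missed the threshold with an adjusted p of 0.168. Without PEF5 it was 2.69 with an adjusted p of 0.0119, and all 8 tested enzymes were then called. Without PEF7 it was 0.72 (adjusted p 0.420), so the size of the RRM2 difference rested on which PEF lines were included.

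The FPKM ratio of RRM1 to RRM2 ran from 0.557 in PEF5 to 6.58 in PEF7, with 1.53 in PEF8. It was 2.39, 2.67 and 1.44 in piPSC5, piPSC7 and piPSC8. The piPSC ratios all lay inside the range of the PEF lines.

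TYMS encodes thymidylate synthase, which makes thymidylate from deoxyuridylate (chromosome 6, 105642381 to 105660601). It was at 14.7, 13.7 and 17.4 FPKM in PEF5, PEF7 and PEF8 and at 61.5, 69.5 and 50.8 FPKM in piPSC5, piPSC7 and piPSC8. Both groups were tight, and unlike RRM2 and TK1, TYMS was not highest in PEF5. It rose 3.97-fold (log2 fold change 1.92, SE 0.18, adjusted p 0.000488). The TYMS row shares 2733 bp with ENOSF1 on the other strand, which was at 1.11 to 3.92 FPKM.

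TK1 encodes the cytosolic thymidine kinase, which salvages thymidine (chromosome 12, 3785937 to 3797912). PEF5, PEF7 and PEF8 were at 9.19, 1.08 and 2.87 FPKM, and piPSC5, piPSC7 and piPSC8 at 22.2, 24.8 and 29.2 FPKM. PEF5 again stood above the other PEF lines, with an 8.50-fold span in PEFs against 1.32-fold in piPSCs, but here the groups did not overlap. TK1 rose 5.80-fold (log2 fold change 2.60, SE 0.54, adjusted p 0.00836). Its table model of 4484 bp is longer than the 1336 bp of RefSeq exons and overlaps SYNGR2 on the other strand by 3231 bp, while the SYNGR2 row itself held 0 to 8 fragments. The preparation protocol does not mention strand marking, so fragments of overlapping genes on opposite strands cannot be told apart here. The level of TK1 relative to other genes depends on this model, which reaches into RefSeq SYNGR2 (3795888 to 3799663). What SYNGR2 fragments add to the TK1 values, and so to its change and its spread between lines, was not tested.

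PEF5 was also the PEF line with the highest level of cell cycle genes. The median log2(FPKM + 1) of the 15 cell cycle genes in the table, of 18 listed, was 3.14, 1.19 and 1.76 in PEF5, PEF7 and PEF8, and 4.31, 3.91 and 4.14 in piPSC5, piPSC7 and piPSC8. Of these genes 12 rose in piPSCs, beside 30.3% of all tested genes. Among those that rose, TOP2A (DNA topoisomerase) was at 8.68, 1.29 and 1.28 FPKM in PEFs against 43.0, 29.5 and 46.0 in piPSCs. CCNB1 (cyclin B1) was at 7.79, 2.23 and 2.01 against 42.8, 51.8 and 56.9 FPKM. E2F1, CDC6 and CDT1 missed the threshold (limma adjusted p 0.1755, 0.0677 and 0.054). E2F1 was at 19.4, 3.62 and 5.66 FPKM in PEFs and at 19.1, 10.8 and 19.85 FPKM in piPSCs, with overlapping groups. With the replication genes PCNA, MCM2, CDC6 and CDT1 left out, an alternative chosen after seeing the data, the medians were 3.12, 1.19 and 1.59 in PEFs. Among the tested enzymes, PEF5 was the highest PEF line for RRM1, RRM2, TK1, GART, PAICS and CAD, but not for TYMS or PPAT. The part of cycling in the values of the 9 enzymes was not tested. In bulk samples, fewer cycling cells and less RNA per cell cannot be told apart.

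**Figure D2:**
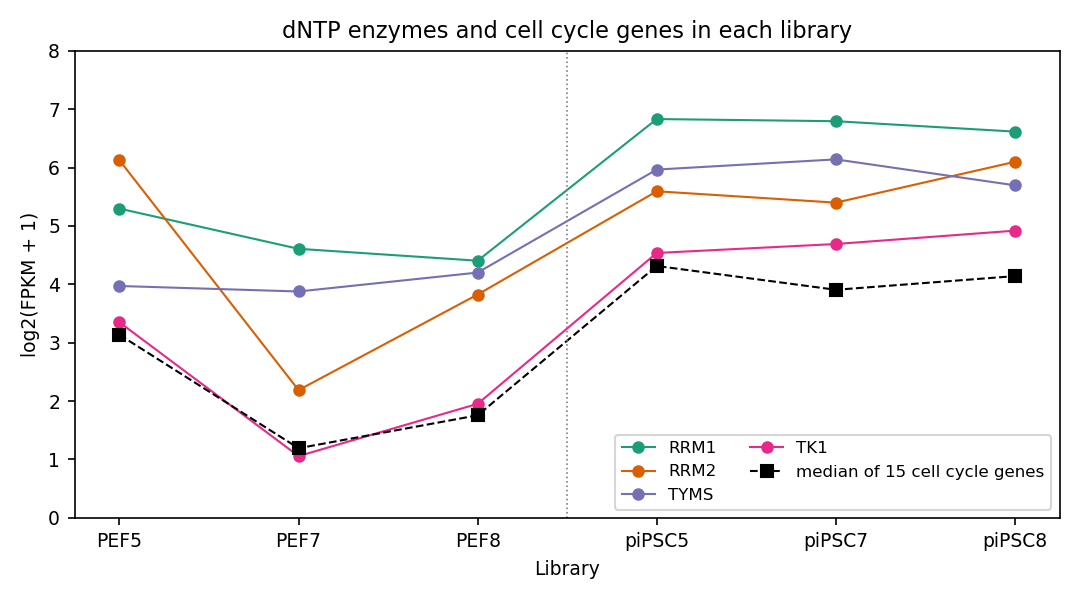
log2(FPKM + 1) of the 4 dNTP enzymes in each library, with the median of 15 cell cycle genes as black squares and a dotted line between PEFs and piPSCs. TK1 runs close to the cell cycle median in PEFs (9.19, 1.08 and 2.87 FPKM), RRM2 has its highest point in PEF5, and TYMS is nearly flat within each group.

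PPAT encodes amidophosphoribosyltransferase, the enzyme of the committed first step of purine synthesis (chromosome 8, 55650606 to 55730014). It was low but detected in PEFs, at 0.962, 0.534 and 1.74 FPKM in PEF5, PEF7 and PEF8, which are 100, 52 and 154 fragments. In piPSC5, piPSC7 and piPSC8 it was at 20.9, 15.1 and 20.8 FPKM. Every piPSC line was far above every PEF line, with line ratios of 21.8, 28.3 and 11.9. PPAT rose 17.5-fold (log2 fold change 3.29, SE 0.27, adjusted p 0.00039).

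PAICS encodes a bifunctional enzyme of the middle steps of the purine pathway (chromosome 8, 55700956 to 55720421). Its level was 13.1, 9.62 and 7.65 FPKM in PEF5, PEF7 and PEF8 and 231.5, 178.4 and 184.6 FPKM in piPSC5, piPSC7 and piPSC8. PAICS was the highest of the 9 in piPSCs by mean FPKM and had the largest fitted change, while RRM2 (28.5 ± 35.2 FPKM, SD, n = 3) and RRM1 (27.3 ± 9.68 FPKM, SD, n = 3) were highest in PEFs. It rose 19.6-fold (log2 fold change 4.18, SE 0.22, adjusted p 0.000146), by 17.7-fold, 18.6-fold and 24.1-fold in lines 5, 7 and 8. Its first place depends on the scale, since the FPKM ratio of PPAT was larger in lines 5 and 7 and both genes had a log2 fold change of 4.30 with voom.

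PPAT and PAICS are neighbours that are transcribed in opposite directions. In RefSeq on Sscrofa11.1 the starts of both genes lie head to head, PAICS starting at 55700700 on the plus strand and PPAT at 55701077 on the minus strand, so that the gene bodies share 378 bp. The PPAT row of the table is longer and spans all 19466 bp of the PAICS row as well as 768 bp of SRP72. The PAICS model counts 1294 bp against 4040 bp of RefSeq exons. The FPKM ratio of PAICS to PPAT was 13.6, 18.0 and 4.39 in PEF5, PEF7 and PEF8 and 11.06, 11.8 and 8.85 in piPSC5, piPSC7 and piPSC8, so the groups overlapped in this ratio. How fragments shared by overlapping models were counted is not given in the sources used here, and the PPAT and PAICS values carry that limit.

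GART encodes a trifunctional enzyme that acts at several of the early steps of purine synthesis (chromosome 13, 197132440 to 197158787). PEF5, PEF7 and PEF8 were at 10.9, 4.77 and 7.59 FPKM, and piPSC5, piPSC7 and piPSC8 at 52.0, 28.1 and 44.1 FPKM. The lines kept one order in both groups, with line 5 highest and line 7 lowest, and the groups did not overlap. GART rose 5.34-fold (log2 fold change 2.29, SE 0.34, adjusted p 0.00222), and the ratio within lines was 4.78, 5.89 and 5.81.

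The FPKM ratio of PAICS to GART was 1.20, 2.02 and 1.01 in the PEF lines and 4.45, 6.35 and 4.19 in the piPSC lines. The groups did not overlap in this ratio, which was computed after the values had been seen and has no test.

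IMPDH2 encodes inosine monophosphate dehydrogenase 2, the step that commits purines to guanine nucleotides (chromosome 13, 31655809 to 31663560). Its row was at 0.239, 0.357 and 0.704 FPKM in PEF5, PEF7 and PEF8 and at 0.368, 0.215 and 0.213 FPKM in piPSC5, piPSC7 and piPSC8. The row held 20, 28 and 50 fragments in the PEF lines, while the piPSC lines had 26, 12 and 11, and the groups overlap. With a mean FPKM under 0.5 the row was not tested, and in a fit with no filter its log2 fold change was -0.17 with an adjusted p of 0.406.

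The IMPDH2 row cannot be read as the level of the gene. A second row, listed as QRICH1 (ENSSSCG00000011373, chromosome 13, 31658651 to 31714491, same strand), begins 5161 bp before RefSeq QRICH1 and covers 99.8% of RefSeq IMPDH2, which lies at 31658642 to 31663660. The identifier table names that row IMPDH2. It was at 9.23, 9.37 and 9.58 FPKM in PEF5, PEF7 and PEF8 and at 8.80, 7.88 and 9.46 FPKM in the piPSC lines, values which would mix both genes if fragments of IMPDH2 were counted there. The 2 rows share 4910 bp, and the IMPDH2 row also shares 498 bp with DALRD3.

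CAD encodes the protein that carries out the first 3 steps of pyrimidine synthesis (chromosome 3, 111887294 to 111914302). It was at 13.9, 9.44 and 7.02 FPKM in PEF5, PEF7 and PEF8 and at 72.9, 41.0 and 63.6 FPKM in piPSC5, piPSC7 and piPSC8. The lowest piPSC line, piPSC7, was still above the highest PEF line, PEF5. CAD rose 5.85-fold (log2 fold change 2.44, SE 0.30, adjusted p 0.00125). The ratio within lines was 5.26, 4.35 and 9.06.

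**Figure D3:**
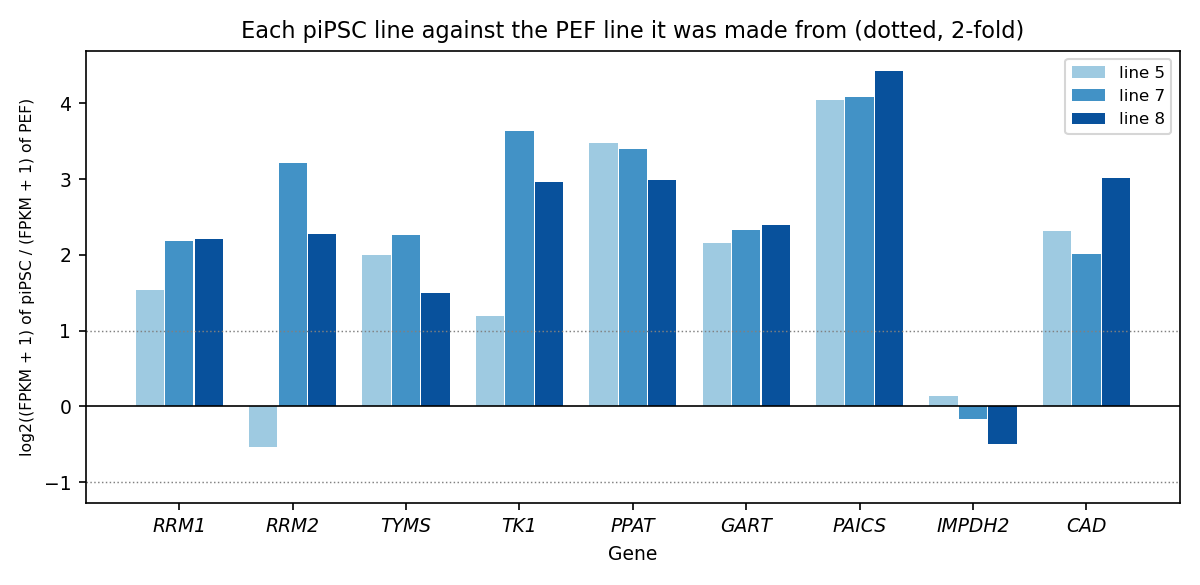
log2 ratio of each piPSC line to the PEF line it was made from, on FPKM + 1, as bars for lines 5, 7 and 8, with dotted lines at a 2-fold difference. Bars of 7 enzymes exceed 2-fold upward in every line, and RRM2 points down in line 5 (-0.53) and up in lines 7 and 8 (3.21 and 2.27). The IMPDH2 row stays within 2-fold on this scale, where 1 is added to values below 1 FPKM. Its plain FPKM ratios were 1.54, 0.602 and 0.303 in lines 5, 7 and 8.

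Line by line, the median log2 ratio of the 8 tested enzymes was 2.08 in line 5, 2.77 in line 7 and 2.68 in line 8. The median over the 4 dNTP enzymes was 1.36, 2.74 and 2.24 in lines 5, 7 and 8. That of the 3 tested purine enzymes was 3.48, 3.39 and 2.99. In each line this purine median was the value of PPAT, whose row overlaps that of PAICS. GART had 2.16, 2.34 and 2.39 in lines 5, 7 and 8, in line 7 below the dNTP median. RRM2 and TK1 had the widest spread of line ratios among the 9. TK1 had a log2 ratio of 1.19 in line 5, 3.63 in line 7 and 2.97 in line 8. PAICS, by contrast, had 4.04, 4.08 and 4.42. With 1 library per line and group, differences between lines were not tested.

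In order of mean FPKM, piPSCs had PAICS (198.1 ± 29.0), RRM1 (106.6 ± 8.39), TYMS (60.6 ± 9.37), CAD (59.2 ± 16.4), RRM2 (52.0 ± 13.8), GART (41.4 ± 12.2), TK1 (25.4 ± 3.56), PPAT (19.0 ± 3.35) and IMPDH2 (0.265 ± 0.0890), each as SD with n = 3. The values of TYMS, CAD, RRM2 and GART overlapped with the next in this order, whereas PAICS, RRM1, TK1 and PPAT were each separated from the next. Since FPKM divides by model length, this order holds only for the gene models of the table. The last place is that of the IMPDH2 row, which cannot be read as the level of the gene.

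The direction of calls over all genes moved with scaling. Summed FPKM was 337074 to 348943 in PEFs and 420498 to 437853 in piPSCs, and rescaling libraries by their median ratio turned 3763 higher and 2667 lower genes into 2826 and 3257, with a median log2 fold change of -0.01. Rescaled to equal sums, 2627 genes were higher and 3383 lower (median -0.06). The count of 7 enzymes called higher was the same under both rescalings.

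The other genes of nucleotide metabolism were read from a list of 51, of which 45 are in the table and 43 were tested. Of these 20 rose, 5 fell and 18 did neither, with a median log2 fold change of 0.74. The shares of 20 and 5 in 43 stand beside the 30.3% and 21.5% over all genes. Rescaled to equal sums, 16 rose and 9 fell, and rescaled by the median ratio, 17 rose and 7 fell.

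**Figure D4:**
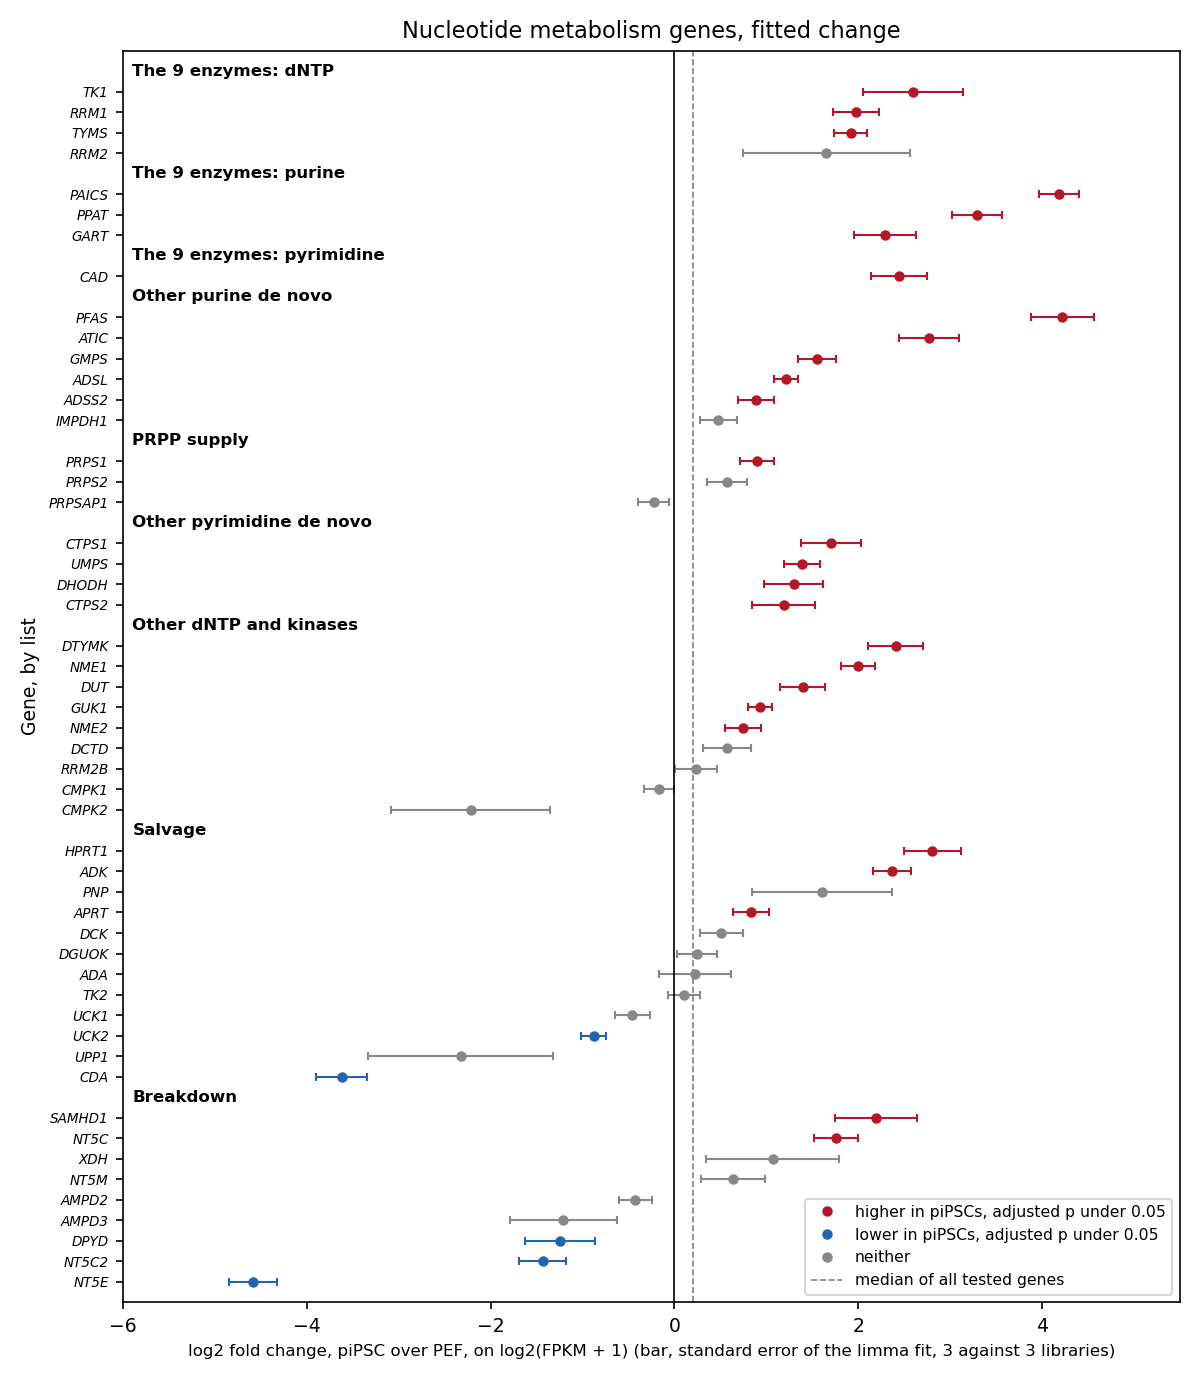
Fitted log2 fold change of piPSCs over PEFs with its standard error for each tested gene of nucleotide metabolism, grouped by role, in red where it rose, blue where it fell and grey where it did neither. The dashed line is the median of all tested genes (0.20). De novo purine and pyrimidine genes lie mostly to the right, from PFAS at 4.22 to IMPDH1 at 0.48, whereas salvage and breakdown genes spread to both sides, from HPRT1 at 2.80 to NT5E at -4.59.

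Of the 6 other tested genes of de novo purine synthesis, 5 rose, beside 30.3% of all tested genes. PFAS, the fourth step of the pathway, was at 1.57, 0.508 and 0.323 FPKM in PEF5, PEF7 and PEF8 and at 31.0, 22.4 and 43.5 FPKM in piPSC5, piPSC7 and piPSC8, a log2 fold change of 4.22 (SE 0.35, adjusted p 0.000377). Its groups were far apart. Its fold between group means was 40.3 against 19.6 for PAICS, a gap that the scale of log2(FPKM + 1) hides because PFAS was low in PEFs. ATIC, which closes the purine ring, rose by 2.77 on the log2 scale (SE 0.33, adjusted p 0.00109). GMPS, which makes GMP, rose by 1.55 and ADSL, an enzyme shared by the ring-building and AMP branches, by 1.21. ADSS2, of the AMP branch, rose by 0.89 (adjusted p 0.0101), a call lost after rescaling to equal sums (adjusted p 0.0553). IMPDH1, the paralog of IMPDH2, was at 14.6, 10.8 and 14.8 FPKM in PEFs and at 19.3, 15.7 and 22.2 FPKM in piPSCs, and its log2 fold change of 0.48 missed the threshold (adjusted p 0.0843).

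The supply of phosphoribosyl pyrophosphate (PRPP), the sugar on which purines are built, was represented by 3 tested genes. PRPS1, a PRPP synthetase, rose by 0.90 (adjusted p 0.00797). PRPS2, a second synthetase, had a log2 fold change of 0.57 that missed the threshold (adjusted p 0.0625) but passed it in 3 of 15 alternatives. PRPSAP1, an associated protein, had -0.23, and was called lower (-0.55, adjusted p 0.0445) after rescaling to equal sums.

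All 4 other tested genes of pyrimidine synthesis rose, beside 30.3% of all tested genes. CTPS1, a CTP synthetase, rose by 1.70 (SE 0.33, adjusted p 0.00596), UMPS, which makes UMP, by 1.39 and DHODH, the mitochondrial step, by 1.30 (adjusted p 0.0149, and 0.0513 without PEF7). CTPS2, a second CTP synthetase, rose by 1.19 with an adjusted p of 0.0258, which became 0.0644 with a replicate block for the line. That was one of 7 alternatives in which the CTPS2 call was lost.

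Of 9 other dNTP genes and nucleotide kinases, 5 rose, beside 30.3% of all tested genes. DTYMK, which phosphorylates thymidylate, was at 7.75, 3.83 and 3.08 FPKM in PEF5, PEF7 and PEF8 and at 26.7, 31.1 and 28.0 FPKM in piPSCs (log2 fold change 2.41, SE 0.30, adjusted p 0.00122). NME1, a nucleoside diphosphate kinase, rose by 1.99, though reads of its near copy NME2 (0.74, a call lost in 7 of 15 alternatives) may be split between them. DUT (1.40), which removes dUTP, and GUK1 (0.93), guanylate kinase, rose too. CMPK1, a cytosolic CMP kinase, had a log2 fold change of -0.17. CMPK2, its mitochondrial relative, had 82, 44 and 889 fragments in PEFs and 0 in every piPSC library, which allows up to 3 fragments each, and missed the threshold (adjusted p 0.0703), which it passed in 4 of 15 alternatives. Intervals and limits of this kind cover counting error only.

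Of 12 tested salvage genes 3 rose and 2 fell, counts near the 30.3% and 21.5% over all tested genes. HPRT1, which recycles hypoxanthine and guanine, was at 20.9, 9.99 and 8.74 FPKM in PEFs and at 90.0, 96.5 and 89.2 FPKM in piPSCs, and rose by 2.80 (SE 0.31, adjusted p 0.000861). ADK, adenosine kinase, rose by 2.37, and APRT, the adenine counterpart of HPRT1, by 0.84, a call lost under both rescalings (adjusted p 0.0688 and 0.0557). CDA, cytidine deaminase, fell by 3.62 (SE 0.28, adjusted p 0.00032) from 11.2, 15.9 and 20.6 FPKM to 0.372, 0.564 and 0.102 FPKM. UCK2, a uridine-cytidine kinase, fell by 0.88. UPP1, uridine phosphorylase, was at 10.6, 2.07 and 32.5 FPKM in PEFs and at 0.177, 5.44 and 0.242 FPKM in piPSCs, with overlapping groups and an adjusted p of 0.0939.

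Of 9 tested breakdown genes 2 rose and 3 fell, beside 30.3% and 21.5% over all tested genes. SAMHD1, which degrades dNTPs, rose by 2.20 (SE 0.45, adjusted p 0.00744), from 7.40, 5.54 and 21.7 FPKM in PEFs to 51.6, 48.8 and 44.8 FPKM in piPSCs. NT5C, a cytosolic nucleotidase, rose by 1.76. NT5E, the surface 5′-nucleotidase CD73 that marks mesenchymal cells, fell by 4.59 (SE 0.26, adjusted p 0.000168), from 36.1, 22.1 and 20.2 FPKM to 0.186, 0.0706 and 0.0254 FPKM. NT5C2 fell by 1.44 and DPYD, which degrades pyrimidines, by 1.25. The DPYD call was lost without any one of PEF5, PEF7, PEF8 or piPSC5 (adjusted p 0.0599 to 0.0946). It was also lost with no filter on low values (adjusted p 0.0546). APRT, UCK2, DPYD, DUT, GUK1 and NME2 were named after their values were seen, to complete these counts.

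3 of the 9 enzymes have a paralog with which they could be compared inside each library. The log2 ratio of TK1 to the mitochondrial kinase TK2 was -0.70, -2.84 and -2.44 in PEF5, PEF7 and PEF8 and 0.33, 0.48 and 0.69 in piPSC5, piPSC7 and piPSC8. The groups did not overlap, and the difference of 2.49 had a p of 0.1 in an exact two-sided permutation test, the smallest that 3 against 3 libraries allow (0.15 adjusted over the 3 comparisons). TK2 itself had a log2 fold change of 0.10, and its sign changed with scaling. The ratio of TK1 to TK2 carries the limit of the TK1 row.

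The log2 ratio of RRM2 to RRM2B, the p53-inducible small subunit, was 4.97, 1.42 and 3.06 in PEFs and 4.37, 4.20 and 5.12 in piPSCs. Here the groups overlapped because of PEF5, and the difference of 1.42 had an exact two-sided permutation p of 0.3 (adjusted 0.3). RRM2B was low in all libraries, between 0.704 and 1.33 FPKM, with a log2 fold change of 0.23 (adjusted p 0.424). The ratio of IMPDH2 to IMPDH1 differed by -0.65 (exact two-sided permutation p 0.1, adjusted 0.15), and it carries the limit of the IMPDH2 row.

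The transcription factor gene MYC, known as a regulator of many nucleotide synthesis genes, was read from its pig gene. It was at 50.9, 58.9 and 6.95 FPKM in PEF5, PEF7 and PEF8 and at 1.42, 1.05 and 0.267 FPKM in piPSC5, piPSC7 and piPSC8, and it fell by 3.98 (SE 0.78, adjusted p 0.00634). How fragments of the c-Myc transgene were treated is not given in the sources used here. MYCL fell by 2.23, and the partner MAX had a log2 fold change of -0.05. MYCN was not tested, with at most 6 fragments in any library. The MYC row was lowest in the libraries in which the 7 enzymes rose, and its part in their values was not tested.

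The genes whose levels followed the mean log2(FPKM + 1) of the 9 enzymes most closely over the 6 libraries, among 7286 genes with a symbol and a mean FPKM of at least 5, were SRSF3 (a splicing factor, r = 0.9995), RNASEH1 (which degrades RNA in RNA-DNA hybrids, 0.9992), MYEF2 (0.9988), NCAPD2 (a condensin subunit, 0.9987) and CCDC137 (0.9983). The mean of the 9 enzymes was 3.48, 2.46 and 2.87 in PEF5, PEF7 and PEF8 and 5.29, 5.01 and 5.23 in piPSC5, piPSC7 and piPSC8. That mean includes the IMPDH2 row and carries its limit. SRSF3 followed the same order within PEFs, at 53.5, 30.7 and 38.4 FPKM, and within piPSCs, at 134.3, 116.8 and 124.3 FPKM. Pearson's r takes no account of the size of a change. RNASEH1 was at 12.4, 11.0 and 11.6 FPKM in PEF5, PEF7 and PEF8 and only at 15.6, 15.3 and 15.7 FPKM in piPSC5, piPSC7 and piPSC8. These correlations describe 6 points that share the group difference.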

How the data were processed

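RNA was read from poly-A selected libraries (NEBNext Ultra RNA kit) as paired-end reads. The authors deposited 1 table of FPKM per gene for the 6 libraries used here. The submitters' processing notes name Bowtie2 2.2.3, HISAT2 2.1.0, HTSeq 0.6.0 and the build Sscrofa11.1, without saying which program made the table, and its rule for fragments shared by genes is not given in the sources used here. Fragments were recovered from FPKM for 18007 genes (100%), and 98.9% to 99.3% of each library's total lies in the table.

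Genes whose FPKM averaged at least 0.5 over the libraries were tested on log2(FPKM + 1) with limma 3.58.1 (lmFit, eBayes with a trend) in R 4.3.3, two-sided and unpaired, with Benjamini-Hochberg adjustment over all tested genes, and called at an adjusted p under 0.05. Fold changes on this scale understate changes of low genes. The script was tested on simulated data. Tables were made with Python 3.11.15. The study's general statistics are unpaired, while its expression lists compare each piPSC line with its own PEF line. Pairing by line comes from the design, as PEF5 gave rise to piPSC5, PEF7 to piPSC7 and PEF8 to piPSC8. Deviations of same-line libraries correlated at 0.0921, 0.0946 and 0.08, other pairs at -0.121 to 0.0553. Each line is 1 library, so p-values measure the spread between lines.

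The 9 enzymes and the gene lists were chosen with earlier results of these data known. Named were all 9 enzymes, the paralogs, each tested de novo and PRPP gene, and in other lists the 2 largest increases and the 2 largest decreases. Likeness was Pearson's r. Promoter windows and positions came from RefSeq on Sscrofa11.1, the build of the table. Alternatives covered the replicate block, pseudocount, filter, scaling, trend, voom on recovered fragments and leaving out each library.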

Additional observations from a re-analysis of the deposited data

Results flagged for a closer look

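RRM2 had a log2 ratio of piPSC to PEF of -0.53 in line 5 against 3.21 in line 7 and 2.27 in line 8, so the lines moved in opposite directions. UPP1, uridine phosphorylase, had 1.07 in line 7 and the opposite sign in the other lines (-3.30 in line 5 and -4.76 in line 8). Each line has 1 library per group, so neither difference was tested.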

How the results depend on the processing

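The 7 enzymes called higher stayed past the threshold in all 15 alternatives, with PAICS between 3.92 and 4.37 and TK1 between 2.06 and 3.21 on the log2 scale. With the replicate block for the line the count was also 7, with 19 of the other pathway genes higher and 5 lower, and RRM2 had an adjusted p of 0.135. Among the named genes CTPS2 was the only call the paired fit lost (adjusted p 0.0644). Rescaling to a sum of 1000000 raised the pathway genes called lower from 5 to 9 and cut those called higher from 20 to 16, with ADSS2, CTPS2, APRT and NME2 lost. The log2 fold change of TK2 (0.10) became -0.16 after rescaling to the median ratio, -0.21 after rescaling to the sum, and ran from -0.0042 (without PEF7) to 0.24 when 1 library was left out; the cause was not tested. Leaving out 1 library kept 7 enzymes called, or 8 without PEF5. UPP1 passed the threshold without PEF7 (-3.22) or without piPSC7 (-3.13), and CMPK2 without PEF7 (adjusted p 0.0457), with a pseudocount of 0.1 (0.0123), after rescaling to the sum (0.0307) and with voom (0.027). PRPS2 passed with quantile normalization (0.0439), no trend (0.034) and voom (0.0389). NME2 lost its call in 4 of the 6 fits that left out 1 library (without PEF5, PEF8, piPSC5 or piPSC7), with an adjusted p of 0.0508 to 0.0654. Precision is limited by 3 libraries per group, and for PPAT and IMPDH2 in PEFs by counts of 154 fragments or fewer.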

Other observations

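RRM2 and the replication helicase gene MCM2 differed in how they were related within the groups, a comparison chosen after seeing the data and not tested. The FPKM ratio of RRM2 to MCM2 was 3.74, 2.36 and 3.15 in PEF5, PEF7 and PEF8 and 0.625, 0.729 and 0.801 in piPSC5, piPSC7 and piPSC8, so that the groups did not overlap although RRM2 itself did. MCM2 was at 18.4, 1.51 and 4.18 FPKM in PEFs and at 75.7, 56.5 and 84.3 FPKM in piPSCs. Its log2 fold change was 3.515, beside a median of 2.18 over the 15 cell cycle genes. Ratios of RRM2 to the other cell cycle genes were not computed, so the separation is shown for MCM2 only. PNP, purine nucleoside phosphorylase, was at 225.2 FPKM in piPSC7 against 50.2 in piPSC5 and 32.1 in piPSC8, and at 11.6 to 38.4 FPKM in PEFs. XDH, xanthine dehydrogenase, was at 6.30 FPKM in piPSC8 and at 0 to 0.197 FPKM in the other libraries.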
